A study of Mus musculus with 6 samples.

Results

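Genes of the major histocompatibility complex (MHC) were examined in adrenal RNA. Glands were taken whole from 6 females at 2 months of age, and each animal gave 1 array. The 3 mutants had the genotype Mst1flox/flox;Mst2flox/flox;Nr5a1-cre. The 3 controls had the genotype Mst1flox/flox;Mst2flox/flox, so all animals carried the floxed alleles of both Hippo pathway kinases. Cre was driven by Nr5a1, a gene of steroid-producing cells, so white blood cells and vessels of the gland were not its target. The controls carried no Cre, and an effect of Cre itself cannot be told apart from loss of the kinases. No source used here gives the mouse strain or its MHC haplotype.

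Members were chosen by name: every gene whose symbol begins with H2-, and 12 further genes of antigen presentation. Of 19505 genes with 1 symbol, 45 were members, made up of 35 H2- genes and 10 of the 12 others. Cd74 and Nlrc5 were not analysed here. Each member had a single probe set. They fell into 25 class I genes, 10 class II genes, 9 genes of the class I pathway and H2-Ke6, which lies in the MHC but encodes HSD17B8, a mitochondrial dehydrogenase with no part in antigen presentation.

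MHC class I molecules sit on nearly all nucleated cells and show peptides cut from the cell's own proteins to CD8 T cells and natural killer cells. Each consists of a heavy chain and beta-2-microglobulin, and its peptides are cut by the proteasome, carried into the endoplasmic reticulum by the TAP transporter and loaded there with the help of tapasin. Class II molecules are made of an alpha and a beta chain, show peptides from endocytosed proteins to CD4 T cells and are found mainly on macrophages, dendritic cells and B cells. Interferon gamma raises both, class II through the coactivator CIITA. In the adrenal gland, resident macrophages are a known class II-positive population.

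Promoters of the class II genes are printed here because they carry the elements through which these genes are switched on together. RefSeq windows of build GRCm38.p6, which span 250 bases before to 50 after each annotated start, were matched by symbol for 36 of the 45 members. Capitals mark the Y box TGATTGG, bound by NF-Y, and before it either the X box AACNNATGATG or, in H2-Aa, the cyclic AMP response type letters TGACGTCA. The X box letters are those that H2-Eb1 and H2-Ob share, with N where they differ, and were set after the class II promoters had been read.
H2-Aa, chr17:34287855-34287909, minus strand: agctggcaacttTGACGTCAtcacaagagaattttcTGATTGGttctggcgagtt
H2-Eb1, chr17:34305766-34305824, plus strand: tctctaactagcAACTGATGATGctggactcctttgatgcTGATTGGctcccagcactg
H2-DMb1, chr17:34153087-34153146, plus strand: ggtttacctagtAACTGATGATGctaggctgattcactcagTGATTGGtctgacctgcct
H2-Ob, chr17:34238808-34238864, plus strand: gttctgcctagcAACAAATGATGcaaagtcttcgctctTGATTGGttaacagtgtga
The gap between both capitalised stretches was 16 bases in H2-Aa, 17 in H2-Eb1, 18 in H2-DMb1 and 15 in H2-Ob. It was counted from the end of TGACGTCA in H2-Aa and from the end of AACNNATGATG in the others. The value of H2-Aa is therefore not like the rest. On either strand, TGATTGG stood in windows of 7 of 8 class II genes and in 7.82% of all 32851 windows. AACNNATGATG stood in 4 of 8 class II genes (H2-DMb1, H2-DMb2, H2-Eb1 and H2-Ob), in 0 of 20 class I genes and in 0.137% of all windows. The matches in H2-Eb1 and H2-Ob were fixed by the choice of letters. TGACGTCA stood in H2-Aa alone of the 8, and in 1.79% of all windows.

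Promoters of the classical class I genes H2-K1 and H2-D1 are shown beside that of H2-T23, the class I gene with the lowest p below. Capitals mark the NF-kappaB site GGGGATTCCC as it stands in H2-K1, the interferon response letters TTTCNNTTC, the letters TGACGC and the Y box on the reverse strand, CCAATCA.
H2-K1, chr17:34000371-34000470, minus strand: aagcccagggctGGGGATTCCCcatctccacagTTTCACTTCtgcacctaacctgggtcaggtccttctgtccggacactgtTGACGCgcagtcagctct
H2-D1, chr17:35262911-35263059, plus strand: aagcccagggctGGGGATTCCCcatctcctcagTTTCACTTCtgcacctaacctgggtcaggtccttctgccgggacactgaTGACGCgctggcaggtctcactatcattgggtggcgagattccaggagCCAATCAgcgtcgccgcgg
H2-T23, chr17:36032735-36032765, minus strand: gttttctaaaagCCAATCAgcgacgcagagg
GGGGATTCCC stood in 2 of 20 class I genes with a window, H2-K1 and H2-D1, and in 0.107% of all windows. Its letters were read from H2-K1, so the match in H2-K1 was fixed. TTTCNNTTC stood in 5 of the 20, against 7.52% of all windows, and TGACGC in 4 of the 20, against 7.40%. The Y box was found in 14 of 20 class I genes and in 2 of 7 pathway genes, Psmb9 and Tap1. The Y box of H2-K1 lies outside the stretch printed.

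Over all 6 arrays, 22206 probe sets were compared by limma, with p-values adjusted by Benjamini-Hochberg over all of them and a threshold of 0.05. Median log2 signals lay between 6.76 and 6.83, and correlations between arrays were 0.991 to 0.993 for the same genotype and 0.988 to 0.992 for different ones. Adrenal cortex markers gave list means of 18.1 to 18.2 in every animal, but saturation, which would shrink a difference at so bright a signal, was not assessed. The 23 background probe sets had mean log2 signals from 2.60 to 7.20, and a gene is called dim here where both of its group means fell in that range. The targeted kinase gene Stk4 measured 8.14, 8.36 and 8.46 in mutants, against 8.32, 8.66 and 8.94 in controls (log2 change -0.32, limma adjusted p = 0.623). These groups overlapped, and no source used here places its probes on the gene, so the value does not check the deletion. Stk3 was not analysed here. With 3 animals a genotype, precision is limited throughout.

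None of the 45 members passed the test in either direction, where 0.0721% of all probe sets were called. Log2 changes, mutant minus control, were below 0 for 34 of the 45 members and ran from -0.85 to 0.46, with a median of -0.17. Among all 19505 genes 52.1% were below 0 and the median was -0.01. At an unadjusted p under 0.05, 3 members were lower (6.67%) and 0 higher, where 10.4% of all probe sets passed this limit, 4.96% of them lower and 5.42% higher. For 7 members (15.6%; H2-T23, H2-T3, H2-Q1, H2-M9, Erap1, Tap2 and H2-Ke6) all 3 mutants lay below all 3 controls and for 0 above, where 16.4% of all probe sets were separated in this way, 8.36% lower and 8% higher. The count of lower members was 32 without mutant 3 and 28 without control 3, the animal with the highest signal for 20 of the 45. Of the members, 21 were dim.

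**Figure D1:**
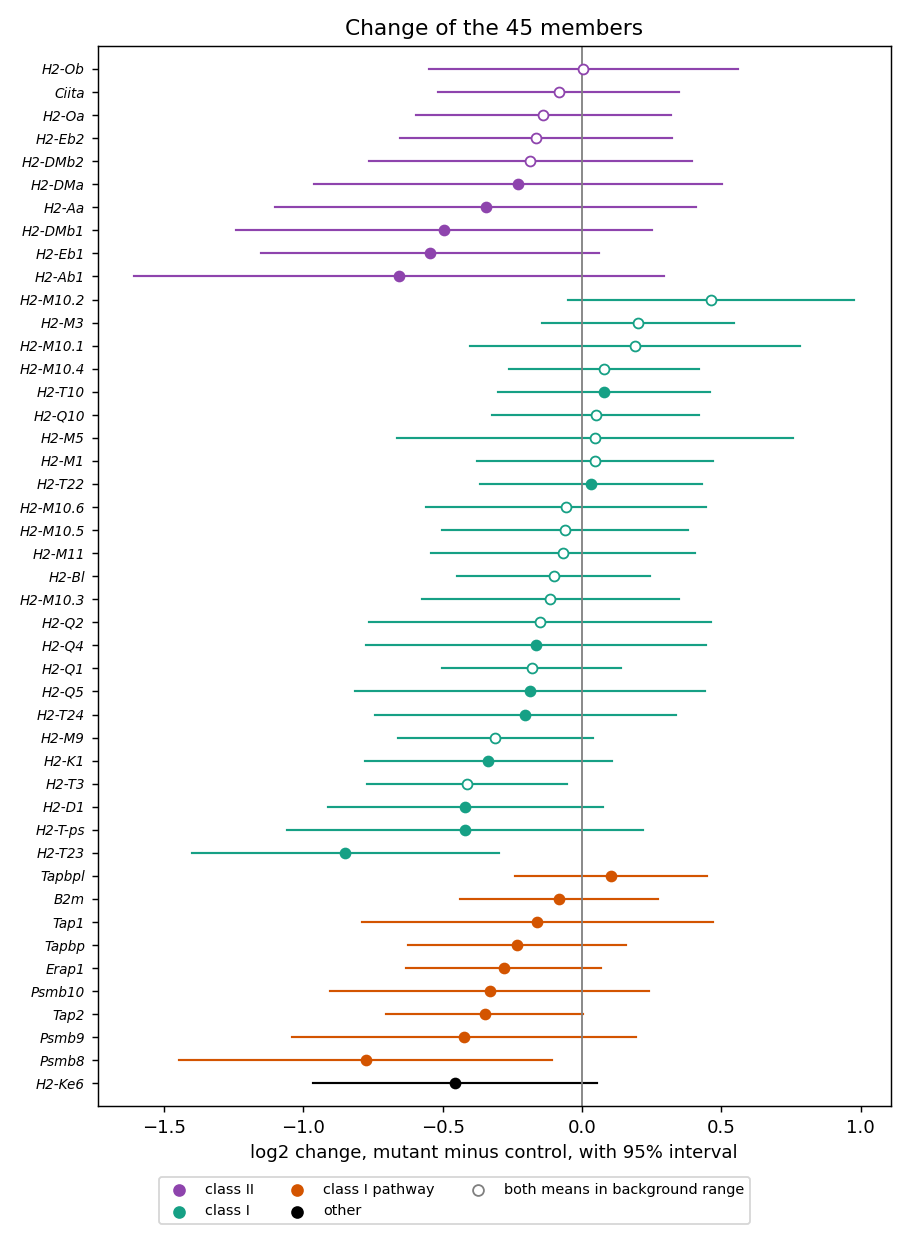
Log2 change of each of the 45 members, mutant minus control, with its 95% limma interval (x axis), ordered within class II, class I, the class I pathway and H2-Ke6 (y axis); open points are genes with both means in the background range. Of the 45 points 34 lie below 0, and intervals of H2-T23, H2-T3 and Psmb8 alone do not reach 0.

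Class II genes were lower in mutants for 9 of 10 members, and 0 passed the test. Their median change was -0.21, with -0.089 without mutant 3 and -0.45 without mutant 1. Of the 10 genes 5 were dim, and the median of the other 5 was -0.50, where that of all genes above the background range was -0.02. H2-Ab1, the beta chain of the I-A molecule, had log2 signals of 13.57, 13.07 and 11.70 in mutants 1, 2 and 3, against 13.34, 13.36 and 13.61 in controls. Mutant 3 stood apart, while mutant 1 lay within the range of the controls. Its log2 change was -0.66 (SE 0.42, 95% interval -1.61 to 0.29, limma adjusted p = 0.648), with -0.12 without mutant 3 and -1.05 without mutant 1. In whole glands, fewer cells of a type and less RNA per cell cannot be told apart.

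H2-Aa, the alpha chain that pairs with it, had 13.06, 12.54 and 11.63 in mutants, against 12.86, 12.53 and 12.89 in controls. The same animal was lowest, and mutant 1 was the highest of the 6. The log2 change was -0.35 (SE 0.33, 95% interval -1.10 to 0.41, limma adjusted p = 0.777), with 0.045 without mutant 3 and -0.67 without mutant 1. H2-Eb1, the beta chain of the I-E molecule, had 11.48, 11.13 and 10.42 in mutants, against 11.52, 11.39 and 11.77 in controls. Mutants 2 and 3 lay below every control and mutant 1 within their range. Its log2 change of -0.55 (SE 0.26, 95% interval -1.15 to 0.06) had the smallest unadjusted p of the class II genes, 0.0711, with a limma adjusted p = 0.531, and the change was -0.25 without mutant 3. H2-Eb2, a second E beta gene, was dim.

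The peptide exchange factor H2-DM, which frees class II molecules of the invariant chain fragment, was again lowest in mutant 3. H2-DMb1, one of its beta chains, had 10.14, 9.83 and 8.90 in mutants, against 9.997, 9.84 and 10.53 in controls (log2 change -0.50, SE 0.33, limma adjusted p = 0.664). H2-DMa, its alpha chain, had 7.80, 7.72 and 6.54 in mutants, against 7.66, 7.40 and 7.69 in controls (log2 change -0.23, SE 0.32, limma adjusted p = 0.856). For H2-DMb1 mutant 2 matched the lowest control and mutant 3 lay well below all of them. For H2-DMa mutant 3 alone lay below the controls, within the background range. Without mutant 3 the changes were -0.13 for H2-DMb1 and 0.18 for H2-DMa, and without mutant 1 they were -0.76 and -0.45.

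The remaining class II members were dim. H2-Oa and H2-Ob encode H2-DO, which restrains H2-DM. H2-Oa had 5.49, 4.86 and 5.21 in mutants, against 5.18, 5.25 and 5.55 in controls. H2-Ob had 5.92, 5.72 and 5.18 in mutants, against 5.50, 5.33 and 5.97 in controls. For both the groups overlapped, with log2 changes of -0.14 and 0.0042. Ciita, the coactivator of class II transcription, had 6.01, 5.58 and 5.73 in mutants, against 5.60, 5.87 and 6.10 in controls (log2 change -0.08, SE 0.19, limma adjusted p = 0.917). Its groups overlapped in the background range, so no change of the coactivator could be read at this signal. H2-DMb2 and H2-Eb2 had log2 changes of -0.19 and -0.16.

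**Figure D2:**
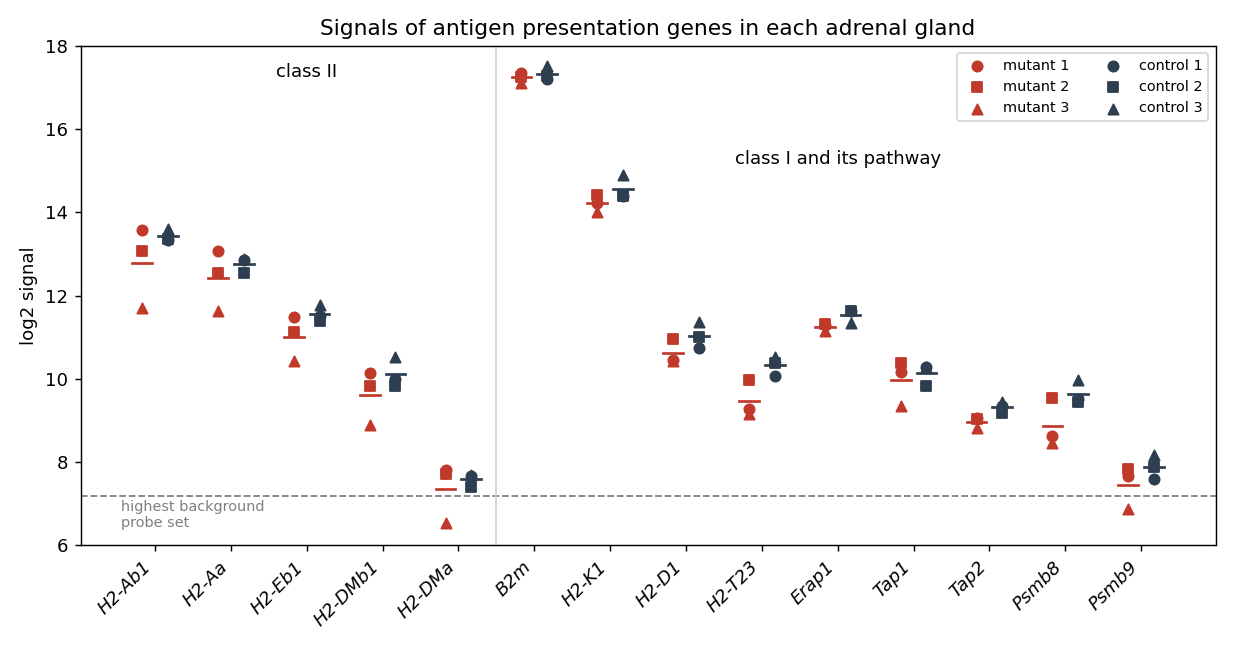
Log2 signal (y axis) of 5 class II genes and 9 genes of class I and its pathway (x axis) in each of the 3 mutants (red) and 3 controls (dark), with group means as bars and the highest background probe set as a dashed line. Mutant 3, the red triangle, is the lowest animal for all 14 genes, which are a selection. Among all 24 members above background it was lowest for 16, and among the 9 of class I for 4. Mutant 1, the red circle, lies above the mutant mean for all 5 class II genes and below it for H2-D1, H2-T23 and Psmb8.

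Class I genes were lower in 16 of 25 cases, and 0 passed the test. The median change was -0.10, and 0.0022 without control 3. Of the 25 genes 16 were dim, and the median of the other 9 was -0.20. The classical heavy chain gene H2-K1 had 14.24, 14.42 and 14.01 in mutants, against 14.38, 14.41 and 14.89 in controls. Control 3 stood above the rest, and mutant 2 lay among the controls. The log2 change was -0.34 (SE 0.19, 95% interval -0.78 to 0.11, limma adjusted p = 0.61), and -0.17 without control 3. H2-D1, the other classical heavy chain, had 10.46, 10.96 and 10.44 in mutants, against 10.75, 11.01 and 11.36 in controls. Mutants 1 and 3 lay below every control. The log2 change was -0.42 (SE 0.22, 95% interval -0.91 to 0.07, limma adjusted p = 0.551), and -0.26 without control 3. Class I heavy chain genes are closely related in sequence and vary between haplotypes, so probes of one can bind transcripts of another, and each value belongs to a probe set rather than to one gene with certainty.

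Nonclassical class I genes of the H2-T region held the member with the smallest p. H2-T23 encodes Qa-1, which shows leader peptides of other class I molecules to the CD94 and NKG2 receptors of natural killer cells. It had 9.28, 9.98 and 9.16 in mutants, against 10.07, 10.39 and 10.52 in controls. Every mutant lay below every control, mutant 2 only just. The log2 change was -0.85 (SE 0.24, 95% interval -1.40 to -0.30), a mutant level 0.555 times that of controls. It did not pass over all probe sets (unadjusted p = 0.00727, limma adjusted p = 0.287, and 0.144 to 0.542 over the alternatives).

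H2-T3, the thymus leukaemia antigen that binds CD8 alpha dimers, was also lower in all mutants but dim. It had 6.58, 6.45 and 6.67 in mutants, against 6.81, 7.17 and 6.96 in controls (log2 change -0.41, SE 0.16, limma adjusted p = 0.419). H2-T-ps had 7.92, 8.98 and 8.01 in mutants, against 8.72, 8.56 and 8.90 in controls (log2 change -0.42, SE 0.28). Mutants 1 and 3 were low here as for H2-D1, and mutant 2 was the highest of the 6. H2-T22, whose product is a ligand of gamma delta T cells, had a log2 change of 0.03. H2-T10, a pseudogene in the RefSeq annotation, had one of 0.08, and H2-T24 one of -0.20.

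Genes of the H2-Q region had log2 changes from -0.19 to 0.05, with 4 of 5 below 0. H2-Q4 and H2-Q5 were above the background range, with changes of -0.16 and -0.19, and control 3 was highest for both. H2-Q1, H2-Q2 and H2-Q10, which is secreted by liver, were dim. All 11 H2-M genes were dim, with 6 higher and 5 lower and a median of 0.05. They include H2-M3, which shows formylated bacterial peptides (log2 change 0.20, SE 0.15), and the H2-M10 genes, known from the vomeronasal organ. H2-M10.2 had 5.68, 5.58 and 4.97 in mutants, against 4.85, 5.22 and 4.77 in controls (log2 change 0.46, SE 0.22, limma adjusted p = 0.533), the most positive change of the 45. H2-M9 had 4.26, 4.34 and 4.44 in mutants, against 4.67, 4.81 and 4.49 in controls (log2 change -0.31, SE 0.15, limma adjusted p = 0.533). Its groups did not overlap, yet all values lay in the background range. H2-Bl had a change of -0.10. H2-Bl, H2-Q5 and H2-T10 are pseudogenes in the RefSeq annotation.

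Genes of the class I pathway were lower in 8 of 9 cases, and 0 passed the test. Their median change was -0.28, and -0.13 without mutant 3. Among the interferon-inducible proteasome subunits, Psmb8 had 8.62, 9.53 and 8.45 in mutants, against 9.51, 9.45 and 9.98 in controls. Mutants 1 and 3 were low, and mutant 2 lay among the controls. Its log2 change was -0.78 (SE 0.29, 95% interval -1.45 to -0.11, unadjusted p = 0.0279, limma adjusted p = 0.41). Without mutant 2 the change was -1.11 and without mutant 3 it was -0.57. Psmb9 had 7.67, 7.84 and 6.87 in mutants, against 7.61, 7.89 and 8.16 in controls (log2 change -0.42, SE 0.27, limma adjusted p = 0.649). Mutant 3 alone lay below the controls, in the background range, and the change was -0.13 without it. Psmb10, the last subunit of the set, had 8.34, 9.15 and 8.35 in mutants, against 8.65, 9.06 and 9.12 in controls (log2 change -0.33, SE 0.25), again with mutants 1 and 3 low and mutant 2 highest.

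Peptides reach class I molecules through the transporter and the loading complex. Tap1, which encodes one chain of the transporter, had 10.18, 10.38 and 9.35 in mutants, against 10.27, 9.84 and 10.28 in controls (log2 change -0.16, SE 0.28, limma adjusted p = 0.886). Mutant 3 was lowest and mutant 2 highest, and the change was 0.15 without mutant 3 and -0.37 without mutant 2. Tap2, its partner, had 9.07, 9.03 and 8.81 in mutants, against 9.35, 9.17 and 9.45 in controls. Here all mutants lay below all controls (log2 change -0.35, SE 0.15, unadjusted p = 0.0513, limma adjusted p = 0.484).

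Erap1, the peptidase that trims peptides to length in the endoplasmic reticulum, had 11.29, 11.31 and 11.14 in mutants, against 11.62, 11.63 and 11.34 in controls. Its groups did not overlap either (log2 change -0.28, SE 0.15, limma adjusted p = 0.581). Tapbp, which encodes tapasin, had a log2 change of -0.23 (SE 0.17). The related peptide editor Tapbpl had 8.64, 8.73 and 8.49 in mutants, against 8.46, 8.67 and 8.41 in controls (log2 change 0.10, SE 0.15, limma adjusted p = 0.862), the sole pathway member above 0. B2m, the light chain shared by class I molecules, had 17.36, 17.25 and 17.12 in mutants, against 17.20, 17.27 and 17.51 in controls. Its groups overlapped (log2 change -0.08, SE 0.16, 95% interval -0.44 to 0.27, limma adjusted p = 0.897), and saturation, which would shrink a difference at so bright a signal, was not assessed.

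H2-Ke6, the dehydrogenase gene, had 7.95, 8.72 and 8.72 in mutants, against 8.89, 8.93 and 8.94 in controls (log2 change -0.46, SE 0.22, limma adjusted p = 0.533). All mutants lay below all controls, and mutant 1 was the lowest. Mutant 1 was also lowest for Psmb10 and for 6 of 25 class I genes (24%), near its share of 20.8% over all genes.

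Mutant 3 was the lowest of the 6 animals for 7 of 10 class II genes, 7 of 9 pathway genes and 4 of 25 class I genes, against 14.6% of all genes. The 5 class II genes above background lay a median of 1.14 log2 units below their control means in mutant 3, 0.29 below in mutant 2 and 0.13 above in mutant 1. For the 9 class I genes above background the medians were 0.55 below in mutant 3, 0.08 above in mutant 2 and 0.32 below in mutant 1. Over all genes the median of these deviations was -0.01 in each mutant. Per animal, the mean of the class II members minus that of the class I members was 1.92, 1.42 and 1.04 in mutants 1, 2 and 3, against 1.67, 1.52 and 1.71 in controls. Dim genes enter these means. Among members above background the same difference was 1.86, 1.06 and 0.57 in mutants, against 1.43, 1.26 and 1.34 in controls. Mutants thus spread on both sides of the controls either way. Over all members the group means differed by -0.17, which became 0.04 without mutant 3.

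**Figure D3:**
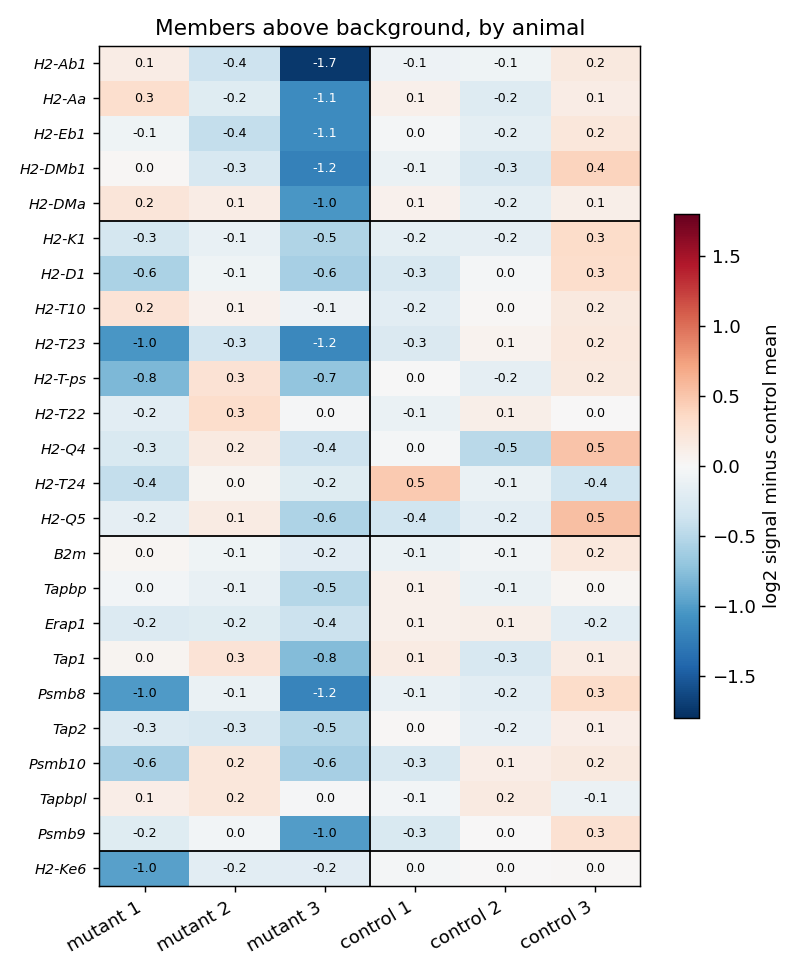
Log2 signal minus the control mean (colour and printed value) for the 24 members above the background range (rows, grouped from the top into class II, class I, class I pathway and H2-Ke6) in each mutant and each control (columns). The 5 class II genes in mutant 3 have a median of -1.14, whereas H2-T23 and Psmb8 are low in mutants 1 and 3.

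Marker genes of cells that carry class II molecules, and of other white blood cells, were read in the same animals. White blood cell markers had list means of 9.29, 9.48 and 9.31 in mutants, against 9.23, 9.01 and 9.21 in controls, with 5 of 5 genes higher. Ptprc, the common leukocyte antigen, had 8.42, 8.60 and 8.77 in mutants, against 8.06, 8.19 and 8.53 in controls, and mutant 3 was the highest animal for 2 of the 5 genes, Ptprc and Coro1a. For Laptm5 and Cd53 mutant 3 was the lowest mutant, with 12.67 and 9.11, and lay within the range of the controls. Macrophage markers had list means of 9.22, 9.32 and 8.94 in mutants, against 8.87, 8.79 and 8.86 in controls, with 10 of 11 genes higher and 0 called. Mutant 3 was the lowest animal for 5 of these 11 genes, C1qa, C1qb, C1qc, Fcgr1 and the dim Adgre1. For C1qa it had 10.64, against 10.85, 10.87 and 10.85 in controls, and for C1qb 11.02, against 11.24, 11.20 and 11.21. Its list mean lay below those of mutants 1 and 2 but above every control. For Lyve1 it had 8.56, against 7.84, 7.61 and 7.94 in controls. Cd163, a scavenger receptor of resident macrophages, measured 7.46, 7.27 and 7.14 in mutants, against 6.38, 6.30 and 6.47 in controls (limma adjusted p = 0.0795). All 3 controls and mutant 3 lay in the background range, so no size is given for this difference. Log2 changes were 0.52 (SE 0.19) for Csf1r, the receptor that maintains macrophages, and 0.42 (SE 0.19) for Aif1. Dendritic cell markers were dim for 8 of 9 genes and B cell markers for 6 of 6. Dendritic cell list means were 5.03 to 5.07 in mutants, against 4.88 to 4.98 in controls. B cell list means were 4.39 to 4.52 in mutants, against 4.32 to 4.60 in controls. T cell markers had list means of 6.09, 5.64 and 5.67 in mutants, against 5.36, 5.62 and 5.63 in controls, with mutant 2 only just above control 3. Of these 6 genes 4 were higher and 2 lower, 4 were dim, and the groups overlapped for each gene. Mast cell markers had list means of 6.30, 6.22 and 5.90 in mutants, against 6.50, 6.33 and 6.46 in controls, so that all mutants lay below all controls and mutant 3 was lowest. The genes did not move together: of 5 genes 3 were lower and 2 higher, and 3 were dim. Kit had 9.67, 8.58 and 8.44 in mutants, against 8.35, 8.31 and 8.21 in controls, with every mutant above every control. Mcpt4 had a log2 change of 0.18. Cpa3, a mast cell protease gene, had 6.93, 7.68 and 6.83 in mutants, against 8.30, 8.09 and 8.64 in controls (limma adjusted p = 0.16), with mutants 1 and 3 in the background range. Natural killer cell markers, dim for 5 of 5 genes, had list means of 5.25, 5.75 and 4.94 in mutants, against 5.38, 5.39 and 5.55 in controls. Of these genes 4 were lower, while Nkg7 had 5.24, 5.09 and 5.14 in mutants, against 4.77, 5.06 and 4.92 in controls. At this signal the order of the animals cannot be read with confidence. The part of these cells in the class I and class II values was not tested.

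Markers of other tissues differed between animals as well, and those of endothelial cells between the groups. The part of these tissues in the class I and class II values was not tested. Fat markers had list means of 12.20, 9.85 and 9.20 in mutants, against 7.82, 9.49 and 10.81 in controls, with mutant 1 highest. Fibroblast markers had 12.12, 11.83 and 11.24 in mutants, against 11.05, 10.81 and 11.34 in controls, with 5 of 5 genes higher and mutant 3 below control 3. Endothelial markers had 13.30, 13.36 and 13.27 in mutants, against 13.04, 12.76 and 12.98 in controls, so that all mutants lay above all controls. Of the 6 endothelial genes 5 were higher and 0 called. For 4 of them every mutant lay above every control, as for 8% of all probe sets. Chromaffin cell markers had 15.07 to 15.12 in mutants 1 and 3 and 14.97 in mutant 2, against 14.95 to 15.98 in controls. Ccl21a, a chemokine of lymphatic vessels and lymph nodes, had 6.14, 10.18 and 9.15 in mutants, against 6.90, 7.18 and 6.24 in controls. The mean signal of the array's intron control probe sets was 5.73, 5.45 and 5.71 in mutants, against 5.47, 5.40 and 5.84 in controls.

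Antigen presentation genes outside the H2- family and the pathway set showed no call either. Of 27 measured genes in this list 17 were lower, with a median of -0.10 and a range from -0.67 to 0.34. Cd1d1, which shows lipids to natural killer T cells, had 13.82, 14.23 and 14.09 in mutants, against 14.77, 14.68 and 14.44 in controls. The groups did not overlap (log2 change -0.59, SE 0.17, limma adjusted p = 0.302). Log2 changes were -0.67 (SE 0.23) for Ctsl, a lysosomal protease gene, and -0.37 (SE 0.13) for Marchf8, a ubiquitin ligase gene whose product lowers surface class II. Factors that bind the X box, Rfx5, Rfxap and Rfxank, had log2 changes of 0.03, 0.03 and 0.00096, and the Y box factors Nfya, Nfyb and Nfyc of 0.30, -0.28 and -0.09. Ctss, the protease that cuts the invariant chain in antigen-presenting cells, had 0.09, and Ifi30, a lysosomal reductase for antigens, 0.12.

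Interferon response genes, which share their inducers with the MHC, were lower for 19 of 25 genes with a median of -0.17, and 0 were called. List means were 8.17, 8.13 and 7.75 in mutants, against 8.09, 8.16 and 8.45 in controls, with mutant 3 lowest and control 3 highest. Irf7, a transcription factor of the interferon response, had 9.49, 9.75 and 8.37 in mutants, against 10.63, 10.48 and 10.44 in controls (log2 change -1.31, SE 0.33, limma adjusted p = 0.227). Every mutant lay below every control. The same held for the guanylate-binding protein gene Gbp3 (log2 change -0.60, SE 0.14, limma adjusted p = 0.201) and the GTPase gene Igtp (-0.85, SE 0.25, limma adjusted p = 0.312). Irf1, a direct activator of class I and Ciita genes, differed by 0.29 on the log2 scale (SE 0.27), and the receptor genes Ifngr1 and Ifngr2 had -0.04 and 0.04.

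**Figure D4:**
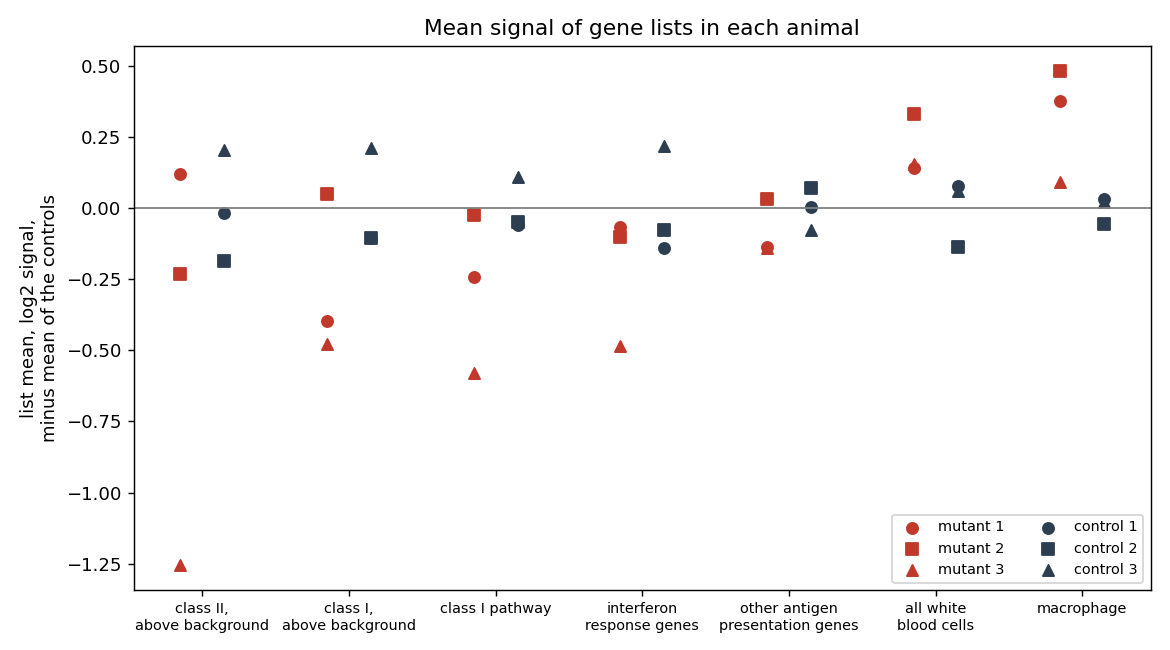
Mean log2 signal of 7 gene lists (x axis) in each mutant (red) and control (dark), minus the mean of the 3 controls (y axis). Mutant 3 lies at the bottom of the class II and class I lists above background and of the class I pathway and interferon lists, and above all controls for white blood cell and macrophage markers. Within the macrophage list it was the lowest animal for 5 of 11 genes.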

How the data were processed

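The deposited values were log2 signals per probe set from Affymetrix whole-transcript arrays, 1 column per animal, the log2 scale being read from their range. Per the submitters' processing notes the authors used Transcriptome Analysis Console 4.0, and no source used here gives its settings or the genome build. After removal of 6640 array control probe sets, 22206 were tested, of which 19572 had 1 gene symbol in the platform annotation, 0 had several and 2634 had none and are unnamed here. The difference between 3 mutants and 3 controls was estimated in R 4.3.3 with limma 3.58.1 (lmFit, then eBayes), without covariates, a filter or further normalization. P-values are two-sided. SEs and 95% intervals are limma's. The fit was tested on simulated data.

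Members, gene lists and alternatives were chosen with earlier results of these data known. The rule gave every animal's value for 14 of the main chains and processing genes and, in class I, class II and the pathway, for the 4 members of smallest unadjusted p and those of most positive and most negative change. Of other lists it took the 3 genes of smallest p, and most marker lists are given by counts and means alone. H2-T-ps, Psmb10, H2-Ke6, Cd53, Coro1a and other list genes without a place among the 3 of smallest p were named after their values were seen. Of the marker lists for natural killer, neutrophil, mast and kidney cells, 4 of 5, 2 of 3, 3 of 5 and 2 of 4 genes were lower, with 0 called. The replicates are separately named animals. Alternatives were 2 normalizations, 2 filters, another variance model, weights for arrays, a block for the replicate number, the intron signal as a covariate, other thresholds and each animal left out. Counts of lower members under them were added after seeing the data.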

Additional observations from a re-analysis of the deposited data

How the results depend on the processing

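The count of 16 probe sets called depended on most settings: 38 with quantile normalization, 32 with a common median, 92 with probe sets above the median level, 41 with probe sets of 1 symbol, 175 with trend and robust eBayes, 48 with array weights, 8 with the intron covariate, 1 to 15 with an animal left out, 108 at an adjusted p under 0.1 and 2306 at an unadjusted p under 0.05. Of those called, 12 were higher and 4 lower in mutants, against 20 and 12 with a common median. Members called stayed at 0 in each of these except the last, which gave 3 (H2-T23, H2-T3 and Psmb8). The lowest adjusted p of the 21 members named by rule was 0.144. Medians over 6 omissions of an animal ran from -0.45 to -0.089 for class II, from -0.15 to 0.0022 for class I and from -0.37 to -0.13 for the pathway, and the class II minus class I difference from -0.40 to 0.040. Among members above background the medians were -0.50 for class II and -0.20 for class I. Over normalizations, weights, the block and the covariate, 34 to 36 of 45 members were lower, and 28 to 37 with an animal left out.

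The change of H2-Ob turned to -0.0062 with quantile normalization, -0.024 with a common median and -0.044 with the intron covariate, and the cause was not tested. With an animal left out, signs turned for H2-Ob (-0.15 to 0.22), Ciita (-0.21 to 0.037), H2-Oa (-0.29 to 0.025), H2-Aa (-0.67 to 0.045), H2-DMa (-0.45 to 0.18), Tap1 (-0.37 to 0.15) and B2m (-0.15 to 0.0092). Control and mutant animals share only a number: deviations of same-numbered animals correlated at -0.09, 0.082 and -0.0695, and mutant 1 correlated best with control 3. With the replicate block 1 probe set was called, 0 members were, and medians stayed at -0.21 for class II, -0.10 for class I and -0.28 for the pathway. Dim signals of 21 members limit what could be seen.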
